A study of Mus musculus with 20 samples.

Results

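Sox9, Lhx2, Nfatc1, Tcf7l1, Tcf7l2, Foxc1, Tbx1, Nfib and Runx1 are transcription factors known for their work in the stem cells of the hair follicle bulge, and these 9 genes, chosen by symbol, are described here among 18727 genes tested. Stem cells of hair follicles, taken from male mice, gave the total RNA that was put on 20 single-colour Agilent mouse arrays. Normal diet (ND) and high fat diet (HFD) groups of 5-month-old mice had the diet for 3 months, ND and HFD groups of 2-month-old mice had it for 4 days, and an Aged group was 24 months old. Each of these 5 conditions had 3 arrays of telogen, the resting phase of the hair cycle, and 1 array of anagen, its growth phase. The labels name no strain, transgene or diet for the Aged mice, and the sources used here do not give the way the stem cells were obtained from skin. Nothing in the labels says that the 3 arrays of a group came from separate mice, so p-values measure the spread between arrays, which may be technical.

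The bulge holds follicle stem cells that stay quiescent through telogen and supply the cells of the new follicle when anagen begins. Sox9 specifies and maintains these cells, Lhx2 keeps them in their undifferentiated state, and Tcf7l1 and Tcf7l2 are the DNA-binding partners of beta-catenin, which act largely as repressors while the Wnt signal is low. Nfatc1 and Foxc1 are known for holding the cells quiescent, Tbx1 for tuning their response to bone morphogenetic proteins (BMPs), Nfib for restraining signals from the stem cells to neighbouring melanocyte stem cells, and Runx1 for promoting the step from telogen to anagen.

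All 17 probes of the 9 genes were well above background on all 20 arrays, so none of the members was lost to the filter on dim probes. Levels below are log2 processed intensities relative to the 75th percentile of the array, so that a level of 0 equals that percentile, and each gene is represented by its probe with the highest mean. Levels of different genes are not compared, since each probe has its own response. The share of spots called well above background was 60.7% to 83.5% per array. Of the bulge markers, 8 of 8 were well above background on all 20 arrays (Cd34, Krt15, Lgr5, Itga6, Krt5, Krt14, Col17a1 and Postn). The mast cell marker Cpa3 and the endothelial markers Cdh5 and Kdr were well above background on 0 arrays. Markers of macrophages and Langerhans cells, fibroblasts, melanocytes and other types were detected in part.

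Sequence upstream of the start was taken for 6 of the 9 genes from RefSeq's table for the GRCm38.p6 build (10 windows, Lhx2, Tcf7l1, Foxc1, Tbx1, Runx1 and Tcf7l2). Windows of members on 1 chromosome were left out, though the count over all windows kept that chromosome. The other 3 genes are thus not said to lack a window. The 250 bases before the start are printed for 3 windows that hold a motif match: that of Foxc1, which passed the test between phases, the more upstream one of Tcf7l2, and the more upstream one of Runx1, the member with a positive difference between phases. The windows of Lhx2 (2), Tcf7l1 (1) and Tbx1 (2) held no match. Capitals mark letters of the binding motifs of the members' own families, searched on both strands: TGTGGT for RUNX, AACAAT for SOX, TGTTTA for forkhead factors, TTGGCA for a partial NFI site, TGGAAA for NFAT, CTTTGAT for TCF/LEF, TAATTA for homeobox factors and AGGTGTGA for T-box factors. The windows lie on the + strand at chr13:31806396-31806645 (Foxc1) and chr19:55741560-55741809 (Tcf7l2) and on the - strand at chr16:92826075-92826324 (Runx1).
Foxc1: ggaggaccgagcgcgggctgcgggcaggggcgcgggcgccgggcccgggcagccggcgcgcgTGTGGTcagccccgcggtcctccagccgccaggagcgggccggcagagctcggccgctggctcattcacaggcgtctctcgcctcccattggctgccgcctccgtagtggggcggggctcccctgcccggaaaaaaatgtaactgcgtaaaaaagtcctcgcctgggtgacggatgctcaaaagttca
Tcf7l2: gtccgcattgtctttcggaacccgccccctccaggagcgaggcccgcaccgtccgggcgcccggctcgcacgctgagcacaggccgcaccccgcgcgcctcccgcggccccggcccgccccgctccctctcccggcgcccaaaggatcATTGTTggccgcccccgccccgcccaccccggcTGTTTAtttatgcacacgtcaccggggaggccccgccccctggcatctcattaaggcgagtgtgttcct
Runx1: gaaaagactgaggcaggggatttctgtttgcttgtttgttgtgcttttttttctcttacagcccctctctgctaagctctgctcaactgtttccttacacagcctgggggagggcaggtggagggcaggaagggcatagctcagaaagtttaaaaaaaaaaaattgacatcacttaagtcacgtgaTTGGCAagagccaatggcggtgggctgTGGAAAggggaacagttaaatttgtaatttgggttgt
The Foxc1 window held a RUNX match that began at -188, counted from the start. The Tcf7l2 window held a SOX match at -102 and a forkhead match at -69, and the other Tcf7l2 window a partial NFI site at -41. The Runx1 window held a partial NFI site at -64 and an NFAT match at -37, and the other Runx1 window had an NFAT match at -11. Such matches are frequent: of 32851 windows of this length, 14% held the RUNX letters, 9.42% the SOX letters, 12% the forkhead letters, 12.3% the partial NFI site and 18.6% the NFAT letters. No TCF/LEF, homeobox or T-box match was found in the 10 windows, where 3.21%, 4.84% and 1.12% of all windows held one. A match describes letters in a window and is no evidence that a factor binds there.

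**Figure D1:**
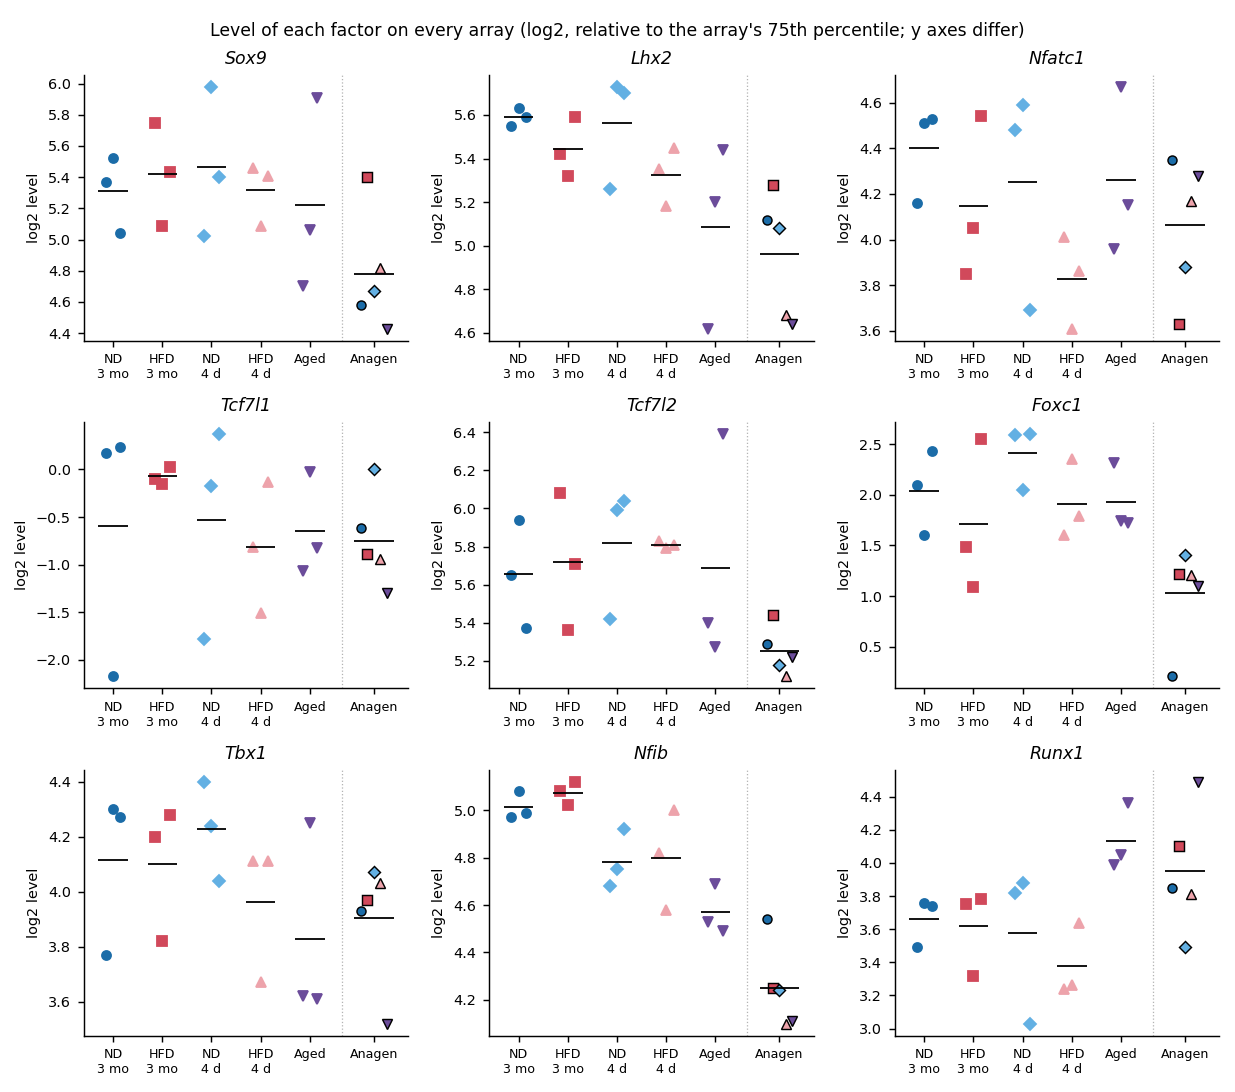
Log2 level of each factor relative to the array's 75th percentile (y axis, a separate scale for each gene) on 15 telogen arrays by group and 5 anagen arrays, where each point is an array and horizontal bars are group means. The anagen points, outlined, keep the colour and symbol of their condition. The 5 anagen points of Foxc1 and Nfib sit low (0.21 to 1.41 and 4.10 to 4.54), and the Aged telogen points of Runx1 sit above the other telogen arrays of ND mice (3.99 to 4.36).

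Nfib had the smallest pooled SD of the 9 factors within groups (0.13), with group means of 5.07 in HFD 3 months, 5.02 in ND 3 months, 4.80 in HFD 4 days, 4.78 in ND 4 days, 4.57 in Aged and 4.25 over the 5 anagen arrays. In that order the step from ND 3 months to HFD 4 days (0.22), from ND 4 days to Aged (0.21) and from Aged to anagen (0.32) exceeded that SD. For Sox9 and Tcf7l2 the 5 telogen means lay between 5.22 and 5.47 and between 5.65 and 5.81, and in each case the step to anagen, 0.45 and 0.40, was the one that exceeded the pooled SD. The means of Foxc1 ran from 2.41 in ND 4 days through 2.04 in ND 3 months, 1.92 in Aged, 1.91 in HFD 4 days and 1.71 in HFD 3 months to 1.03 in anagen, with a step over the pooled SD of 0.47 at the end. No step exceeded that spread in Lhx2, Nfatc1, Tcf7l1, Tbx1 or Runx1. Over the 9 genes, 6 of 45 steps between neighbours exceeded the pooled SD, and in 45 of 45 the ranges of the neighbours overlapped. Tcf7l1 had the widest spread, from -2.17 to 0.37 in telogen, with an ND 3 months and an ND 4 days array at the low end.

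High fat diet given for 3 months left none of the factors past the threshold, an adjusted p of 0.05 after Benjamini-Hochberg adjustment over all genes. Their HFD minus ND differences lay between -0.33 and 0.52 on the log2 scale, and each was smaller than its standard error. By limma's moderated test 0 of 9 were called at 3 months and 0 of 9 at 4 days, where 0% of all genes were called in either comparison. At an unadjusted p below 0.05 there were likewise 0 of 9, against 3.9% of all genes at 3 months and 4.36% at 4 days. For each of the 9 genes the ND and HFD arrays overlapped at both durations, while 9.85% and 9.7% of all genes had no overlap. At both durations the ND telogen arrays sat in row 1 of their slide and the HFD ones in row 2, so row and diet cannot be told apart. In these bulk samples, fewer cells of a type and less RNA per cell cannot be told apart.

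At 4 days, 7 of 9 differences were smaller than their standard error and the others belonged to Nfatc1 and Foxc1, both linked to quiescence. Nfatc1 stood at 4.48, 4.59 and 3.69 in ND and at 4.01, 3.61 and 3.86 in HFD. Its HFD arrays thus lay below a pair of the ND arrays and around the third, with a difference of -0.43 ± 0.32 (SE, 95% interval -1.12 to 0.27). Foxc1 levels were 2.59, 2.05 and 2.60 in ND against 1.60, 2.35 and 1.79 in HFD, a difference of -0.50 ± 0.40 (interval -1.37 to 0.37). The HFD arrays overlapped the lowest ND array. Averaged over both durations the differences were -0.34 ± 0.22 for Nfatc1, -0.42 ± 0.28 for Foxc1 and -0.19 ± 0.19 for Lhx2, the 3 members at or above their standard error, and 0 of 9 passed the test, with 0 at an unadjusted p below 0.05 (0% and 4.29% of all genes).

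The change of the diet difference between 3 months and 4 days was tested directly. Again 0 of 9 factors passed, with 0 at an unadjusted p below 0.05 (0% and 3.74% of all genes by limma), and each of the 9 estimates was smaller than its standard error. In the diet comparisons at 1 duration the 95% intervals reached 0.47 to either side of the estimate for Nfib and 1.47 for Tcf7l1, on the log2 scale. A change of Nfib beyond 0.52 in either direction lies outside its 3-month interval (-0.41 to 0.52), whereas for Tcf7l1 (-0.96 to 1.99) a doubling is inside it.

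**Figure D2:**
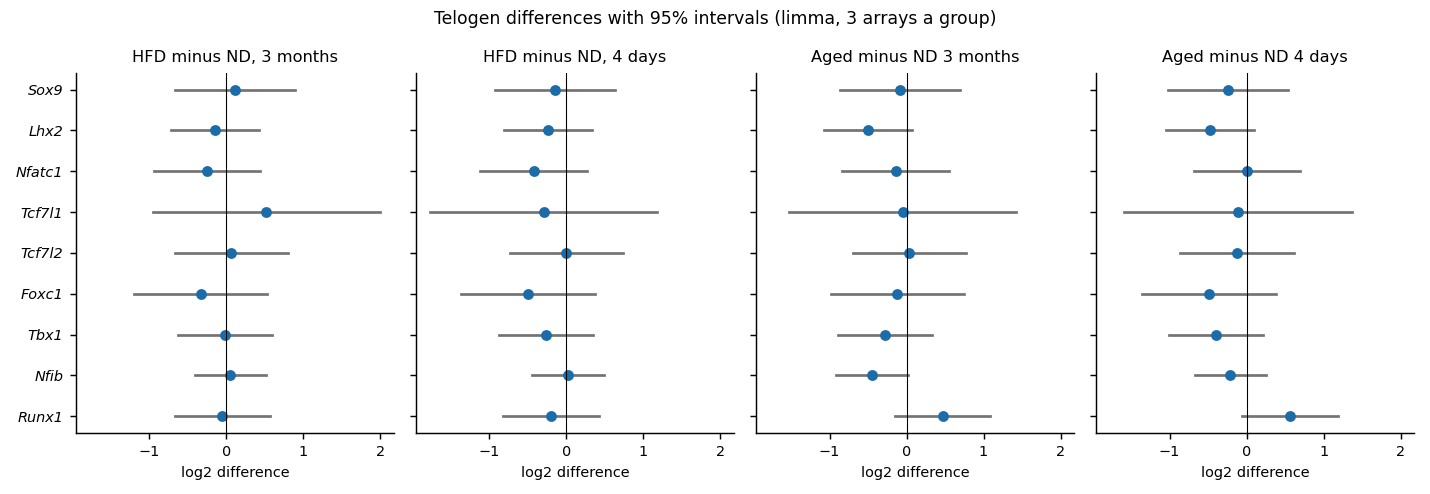
Log2 difference (x axis) of each factor in 4 telogen comparisons, each of 3 arrays against 3, with points for the estimates and lines for the 95% intervals from limma. Each interval includes 0, and the intervals of Nfib are the narrowest while those of Tcf7l1 are the widest.

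In the comparisons of Aged with young ND telogen, 0 of 9 factors passed the test against either young group, and the differences lay between -0.50 and 0.47 against ND 3 months and between -0.49 and 0.56 against ND 4 days. In the Aged comparison with ND 3 months 0.0641% of all genes passed, and in that with ND 4 days 0.0374%; both comparisons share the Aged arrays. At an unadjusted p below 0.05 there were 0 of 9 in each, against 11.9% and 7.85% of all genes by limma. Lhx2, Nfib and Runx1 had no overlap between Aged and ND 3 months arrays, and Runx1 none between Aged and ND 4 days arrays, where 18% and 10.5% of all genes had none.

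Runx1, which promotes entry into anagen, stood at 3.99, 4.05 and 4.36 in Aged telogen. It was at 3.49, 3.76 and 3.74 in ND 3 months and at 3.82, 3.88 and 3.03 in ND 4 days. The 3 Aged arrays were above the 6 young ND arrays, by 0.47 ± 0.29 over ND 3 months (adjusted p = 0.538) and by 0.56 ± 0.29 over ND 4 days (adjusted p = 0.681). Relative to the median difference of all genes these were 0.41 and 0.65. Without the lowest ND 4 days array (3.03) the second difference was 0.29.

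Nfib was at 4.53, 4.69 and 4.49 in Aged telogen, at 4.97, 5.08 and 4.99 in ND 3 months and at 4.68, 4.75 and 4.92 in ND 4 days. The Aged arrays lay below the ND 3 months arrays and met the lower end of ND 4 days. The differences were -0.45 ± 0.21 (adjusted p = 0.436) and -0.21 ± 0.21. Nfib also had no overlap between ND 3 months and ND 4 days (0.24 ± 0.21, adjusted p = 0.715), where 24.2% of all genes had none. These groups were on different slides, so slide and group cannot be told apart, and the difference was -0.08 with slide as a term and -0.02 on the other Nfib probe.

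Lhx2 levels of 4.62, 5.20 and 5.44 in Aged telogen compared with 5.55, 5.63 and 5.59 in ND 3 months and 5.26, 5.73 and 5.70 in ND 4 days, which gave -0.50 ± 0.26 (adjusted p = 0.471) and -0.48 ± 0.26 (adjusted p = 0.708). Without the lowest Aged array they were -0.27 and -0.24. The spread among the Aged arrays was wide, and their order followed that of the summed linear level of the 8 bulge markers. That level was 351, 384 and 612 in Aged, against 566 to 608 in ND 3 months and 464 to 602 in ND 4 days. In the same order the 75th percentile intensities of the Aged arrays were 3398, 3474 and 1542, and their part was not tested. Of the 8 bulge markers, 8 were below 0 in Aged against ND 3 months and 7 against ND 4 days, and 0 passed the test in either (limma). Of the other marker lists 0 genes passed too, with Pmel of melanocytes at -3.06 ± 0.90 and the globin gene Hbb-b2 at 2.56 ± 0.85 against ND 3 months (limma, adjusted p of 0.275 and 0.305). The part of these markers in the differences of the factors was not tested. Tbx1, at 3.62, 4.25 and 3.61 in Aged telogen, differed by -0.29 ± 0.28 from ND 3 months (3.77, 4.30 and 4.27) and by -0.40 ± 0.28 from ND 4 days (4.40, 4.24 and 4.04), and Foxc1 by -0.49 ± 0.40 from ND 4 days. Leaving out 1 array moved the first Tbx1 difference to values between -0.50 and -0.18. On the probes used, Sox9, Nfatc1, Tcf7l1 and Tcf7l2 stayed within 1 standard error of 0 in both.

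The Aged telogen arrays were on a slide and scan of their own, apart from the young ND telogen arrays, so slide and age cannot be told apart within telogen. With slide as a term over all 20 arrays, where it rests on the single anagen arrays, the differences from ND 3 months turned to 0.10 for Nfib (adjusted p = 0.998) and to -0.10 for Runx1 (adjusted p = 0.999). The step between 5-month and 2-month ND mice called 0 of 9 factors (0 at an unadjusted p below 0.05, against 0.016% and 11.8% of all genes by limma), and so did the F test over the 5 telogen groups (0 at an unadjusted p below 0.05, against 0.0481% and 12.4%).

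Between the phases of the hair cycle, Foxc1 and Nfib were lower in anagen. They are the 2 of 9 factors that passed the test, both in the lower direction, where 6.11% of all genes were called, 2.81% higher and 3.31% lower. Sox9, Lhx2 and Tcf7l2 were below telogen in each of the 5 conditions without passing, and Runx1 was the 1 member with a positive difference. The median of the 9 differences was -0.443, beside -0.156 over all genes, and 8 of 9 were below 0, beside 60.4% of all genes. At an unadjusted p below 0.05 there were 5 of 9, against 22.9% of all genes by limma.

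Foxc1, a forkhead factor of quiescence, was at 1.09 to 2.60 (median 2.05) on the 15 telogen arrays. On the anagen arrays of mice fed for 3 months it was at 0.21 with ND and 1.22 with HFD, on those of mice fed for 4 days at 1.41 with ND and 1.21 with HFD, and on the Aged one at 1.10. The 5 anagen arrays lay below the telogen median, and 1 of them below the lowest telogen array. The fitted difference was -0.97 ± 0.25, a level 1.96-fold lower in anagen (limma, adjusted p = 0.0291), and relative to the median of all genes it was -0.82.

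Nfib, which represses the melanocyte signal Edn2 in the bulge, was at 4.49 to 5.12 (median 4.92) in telogen. Its anagen levels were 4.54 with ND and 4.25 with HFD at 3 months, 4.24 with ND and 4.10 with HFD at 4 days, and 4.11 in Aged. Of these, 4 of 5 were below the lowest telogen array, and 5 of 5 below the lowest telogen array of their own condition. The difference was -0.60 ± 0.13, 1.52-fold lower (limma, adjusted p = 0.0114), and -0.44 relative to all genes.

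**Figure D3:**
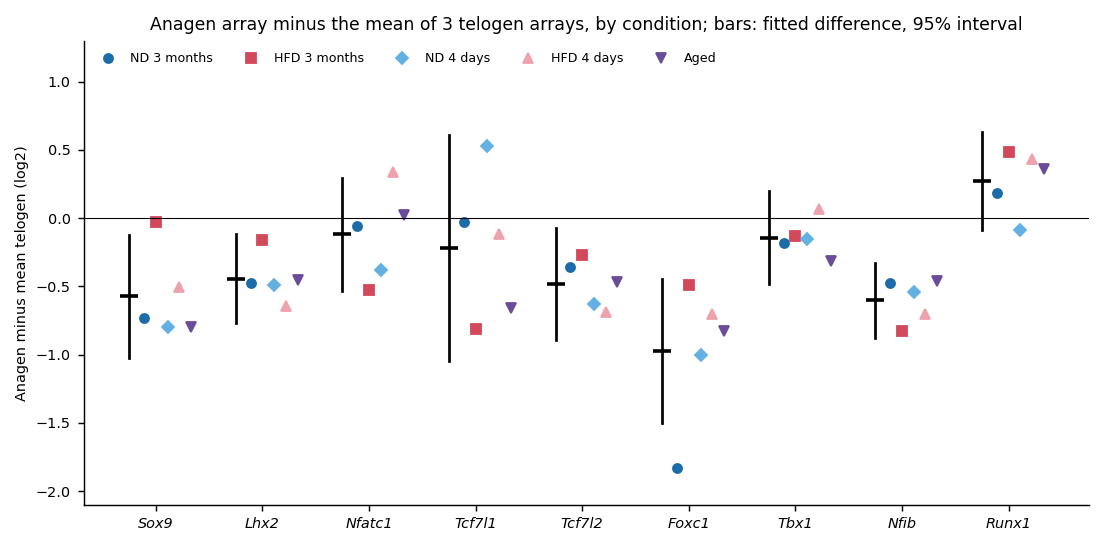
Anagen level minus the mean of the 3 telogen arrays of the same condition (y axis, log2) for each factor, with 1 point for each of 5 conditions and, at the left of each gene, the fitted difference with its 95% interval. The 5 points lie below 0 for Sox9, Lhx2, Tcf7l2, Foxc1 and Nfib, and Foxc1 in ND 3 months is the lowest point at -1.83.

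Both calls rested on few arrays and on the scaling. Scaled by the array median, which moved the median of all genes from -0.156 to 0.056 and the share of calls that were higher from 45.9% to 66%, Foxc1 differed by -0.76 (adjusted p = 0.149) and Nfib by -0.39 (adjusted p = 0.251). With quantile normalization Nfib differed by -0.49 (adjusted p = 0.0598). Foxc1 had an adjusted p of 0.144 without the ND 3 months anagen array (difference -0.76), 0.0864 without that of ND 4 days, 0.0636 without that of HFD 4 days and 0.0622 without that of Aged, and Nfib had 0.0506 without that of HFD 4 days. On the slides, 3 conditions had their anagen array beside their telogen arrays, and there the differences were -1.83 in ND 3 months, -1.01 in ND 4 days and -0.83 in Aged for Foxc1, and -0.48, -0.54 and -0.46 for Nfib. With slide as a term the adjusted p was 0.0526 for Foxc1 (-1.22) and 0.0946 for Nfib (-0.49). Each anagen array sat in the first column of its slide and telogen arrays in the others, so column and phase cannot be told apart. The 75th percentile intensity of the anagen arrays was 2845 for ND and 1991 for HFD of 3 months. It was 2932 for ND and 3597 for HFD of 4 days, and 3079 for Aged. Telogen arrays had 1786 to 2691 in young mice and 3398, 3474 and 1542 in Aged mice. The part of array intensity in the differences was not tested.

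Sox9 ran from 4.70 to 5.98 (median 5.40) in telogen and stood in anagen at 4.58 and 5.40 for ND and HFD of 3 months, at 4.67 and 4.82 for ND and HFD of 4 days, and at 4.43 for Aged. Outside HFD 3 months, where the difference was -0.03, anagen was lower by 0.50 to 0.80, and the fitted difference was -0.57 ± 0.21 (limma, adjusted p = 0.124). Lhx2 had telogen levels of 4.62 to 5.73 (median 5.44) and anagen levels of 5.12, 5.28, 5.08, 4.68 and 4.64 in the same order of conditions. The 5 differences of Lhx2 lay between -0.65 and -0.16, and the fitted one was -0.44 ± 0.16 (limma, adjusted p = 0.102, and 0.0249 with a trended and robust prior). Tcf7l2 went from 5.27 to 6.39 (median 5.79) in telogen to 5.29, 5.44, 5.18, 5.12 and 5.22 in anagen, with differences of -0.69 to -0.27 and a fitted value of -0.48 ± 0.19 (limma, adjusted p = 0.154). Its 3 other probes differed by -0.17 ± 0.21, -0.31 ± 0.19 and -0.09 ± 0.20, and each was above the telogen mean in at least 1 condition. All-negative or all-positive sets of 5 differences were found in 18.9% of all genes, so the 5 members with such a set are read beside that share.

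Tcf7l1, Nfatc1 and Tbx1 had anagen arrays on both sides of their telogen means. Tcf7l1 differed by -0.22 ± 0.39. Nfatc1 (-0.12 ± 0.19) and Tbx1 (-0.14 ± 0.16) turned to 0.09 and 0.07 when arrays were scaled by their median. Runx1 was higher than the telogen mean in 4 of 5 conditions, at 3.85, 4.10, 3.49, 3.81 and 4.49 in anagen against 3.03 to 4.36 (median 3.75) in telogen, a difference of 0.27 ± 0.17 (limma, adjusted p = 0.35). Among the anagen arrays, with 1 array a condition and no replicate check, HFD minus ND was 0.82 for Sox9, 1.01 for Foxc1 and -0.72 for Nfatc1 at 3 months and 0.15, -0.20 and 0.29 at 4 days. Aged minus ND was 0.65 for Runx1 against ND 3 months and 1.01 against ND 4 days.

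Markers of other compartments moved with the phases. Of the bulge markers, 3 of 8 passed the test as lower in anagen and none as higher, where 3.31% of all genes passed as lower. They were Cd34 at -2.19 ± 0.20, Krt15 at -0.81 ± 0.18 and Col17a1 at -0.72 ± 0.16 (limma, adjusted p of 1.99e-05, 0.0137 and 0.0128). Among those that did not pass, Itga6 was at 0.31 ± 0.23, while Postn, Krt5, Lgr5 and Krt14 had negative differences. The summed bulge level was 316 to 481 in anagen and 351 to 612 in telogen. The differentiated epidermis list, with 4 of its 5 genes on the array and well above background on every array, summed to 77.6 to 114 in anagen and 30.9 to 115 in telogen, with Krt1 higher by 1.26 ± 0.36 (limma, adjusted p = 0.0477). In the upper follicle list, 4 of 4 on every array, the sum was 34.4 to 61.5 against 19.9 to 42.5, and Krt79 and Lrig1 were higher by 1.44 ± 0.27 and 1.18 ± 0.23, while Plet1 of this list differed by -0.66 ± 0.27 (limma, adjusted p = 0.162). The fibroblast and dermal papilla list summed to 1.03 to 2.46 in anagen and 2.36 to 10 in telogen. Of its 7 genes 3 to 6 were well above background. Most of that sum was Col1a2, at a mean log2 level of 2.28 in telogen, where the other genes were at -3.01 or below. In that list Col1a2 was lower by 1.90 and Dcn, well above background on 3 of 20 arrays, higher by 2.44 (limma, adjusted p of 0.00212 and 0.0118). The red blood cell gene Hba-a2 was lower by 1.24 (limma, adjusted p = 0.0486). The macrophage and Langerhans cell list had 4 to 6 of 6 genes well above background. It summed to 98.5 to 176 in anagen and 101 to 214 in telogen. Nearly all of that sum was Itgam, at a mean log2 level of 7.22 in telogen, where the other genes were at 1.85 or below. Adgre1 and Ptprc were well above background on 3 and 7 of 20 arrays. The melanocyte list, with 2 to 4 of 4, summed to 2.45 to 5.71 in anagen and 2.60 to 6.71 in telogen. The part of these compartments in the differences of the factors was not tested.

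Genes reported as targets of the factors in follicle stem cells moved in both directions. Of 17 listed and tested, 3 were called higher and 5 lower in anagen, where 2.81% of all genes were called higher and 3.31% lower. Their median was -0.191, beside -0.156 over all genes. The BMP-responsive Id genes fell together, with Id2 at -2.40 ± 0.23, Id3 at -1.88 ± 0.23 and Id1 at -1.76 ± 0.28 (limma, adjusted p of 2.41e-05, 0.000168 and 0.00135). Fgf18, a growth factor that holds follicles in telogen, fell by 4.78 ± 0.64 on the log2 scale and was well above background on 4 of 5 anagen arrays (limma, adjusted p = 0.000348). The transglutaminase gene Tgm5 fell by 1.84 ± 0.23 (limma, adjusted p = 0.000214).

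Edn2, the endothelin that Nfib represses, went from -3.80 to 0.38 (median -1.11) in telogen to 1.96 to 2.73 in anagen, with no overlap. It was higher by 3.79 ± 0.57 (limma, adjusted p = 0.000879). Cdk4, a cell cycle kinase that Nfatc1 represses, was at 2.14 to 3.26 in telogen and 3.21 to 3.76 in anagen, a difference of 0.73 ± 0.19 (limma, adjusted p = 0.0298), while Nfatc1 itself was not called. Inhbb, an activin subunit linked to Sox9, was higher by 1.42 ± 0.36 (limma, adjusted p = 0.0256). The Cdk4 call was lost without the anagen array of ND 3 months (adjusted p = 0.0789), ND 4 days (0.0984), HFD 4 days (0.0988) or Aged (0.0622), and the Inhbb call without that of ND 3 months (0.0659), HFD 4 days (0.098) or Aged (0.0932). Slide as a term gave adjusted p-values of 0.12 for Cdk4 and 0.133 for Inhbb. Id1, Edn2, Inhbb and Cdk4 are named beyond the 4 smallest p-values of the list, chosen after their values were seen.

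Paralogues and cofactors, with 24 of 27 tested, had 1 gene called higher, none called lower and a median of -0.317. Sox4, a SOX gene of another group than Sox9, was higher by 2.23 ± 0.33 (limma, adjusted p = 0.000823). Of the other epidermal and follicle factors 27 of 27 were tested, with 2 called higher, 1 called lower and a median of 0.153. Prdm1, a repressor known from sebaceous and hair lineages, was higher by 2.74 ± 0.65 (limma, adjusted p = 0.018), and Gli1, the transducer of Hedgehog signals, by 1.52 ± 0.37 (limma, adjusted p = 0.0219). Klf4, a factor of epidermal differentiation, fell by 0.78 ± 0.15 (limma, adjusted p = 0.00578, and 0.0962 when scaled by the array median). Prdm1 was not called without the anagen array of ND 3 months (adjusted p = 0.0823), HFD 4 days (0.0681) or Aged (0.0606), nor Gli1 without that of ND 3 months (0.0923), ND 4 days (0.10), HFD 4 days (0.0653) or Aged (0.0571).

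In telogen, 0 genes of the 3 lists passed in the diet or age comparisons by limma. For HFD at 3 months the smallest p-values of the lists belonged to Runx3 (1.12 ± 0.45), Msx2 (-0.75 ± 0.27) and Lgr5 (-0.58 ± 0.36), and at 4 days to Ovol1 (2.81 ± 1.09), Nfatc2 (-1.80 ± 0.77) and Inhbb (-1.42 ± 0.60), with an adjusted p of 1 for each by limma. Without 1 array these reached down to 0.70 for Runx3, -0.30 for Lgr5, 1.27 for Ovol1, -1.18 for Nfatc2 and -0.68 for Inhbb, and Nfatc2 was at 0.12 as the mean over its probes. Msx2, a homeobox factor of the follicle, led its list against both young groups in the Aged comparison, at -1.21 ± 0.27 against ND 3 months (limma, adjusted p = 0.172) and -1.62 ± 0.27 against ND 4 days (limma, adjusted p = 0.0684). Tgm5 led the targets at -0.98 ± 0.35 and -0.88 ± 0.35. The paralogues and cofactors were led by Tcf7 against ND 3 months (-1.62 ± 0.74, limma, adjusted p = 0.415). Against ND 4 days Nfatc2 led them (-1.47 ± 0.77, limma, adjusted p = 0.692). Tcf7 reached -0.59 and Nfatc2 -0.85 without 1 array, and they were at -0.21 and -0.48 with slide as a term. With slide as a term Msx2 was at -0.51 and -0.31 and Tgm5 at -2.32 against ND 3 months, and without 1 Aged array Tgm5 was at -0.52 and -0.42. The targets had 12 of 17 and 14 of 17 differences below 0 in these comparisons, with medians of -0.388 and -0.493, beside 46.5% and 56.3% of all genes below 0.

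**Figure D4:**
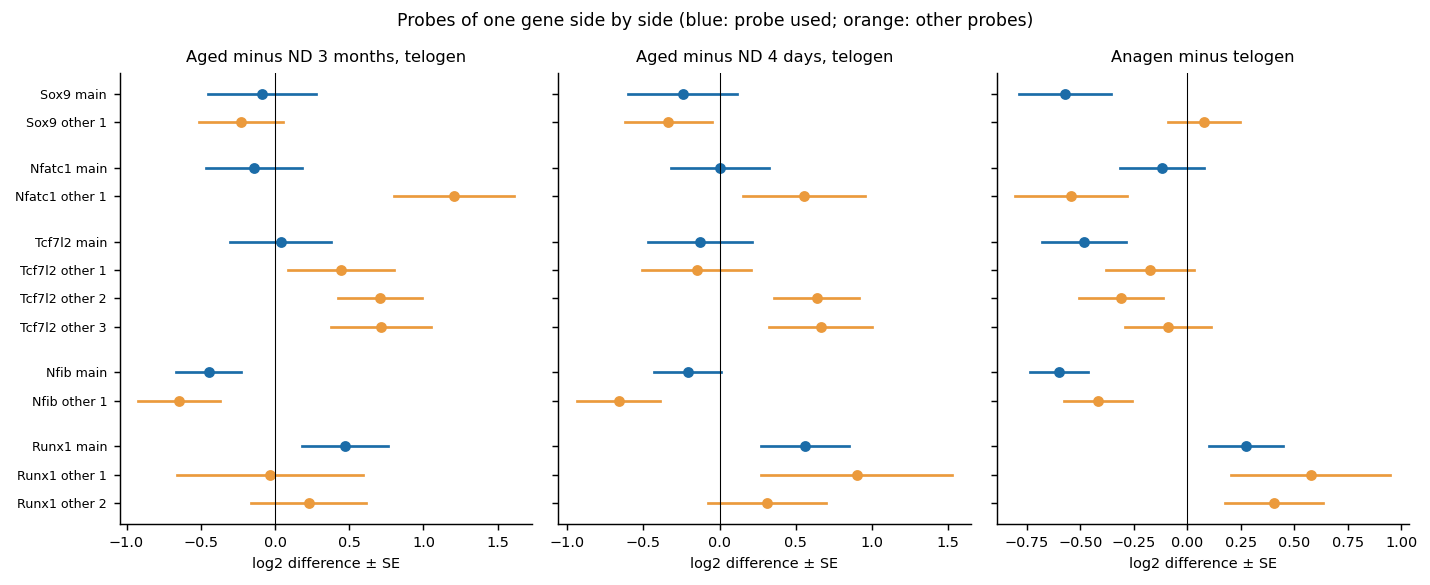
Log2 differences with standard errors (x axis) of the 13 probes of the 5 genes that have more than 1 probe, in Aged against both young ND telogen groups and in anagen against telogen. Blue marks the probe used and orange the others; the probes of Nfib lie on 1 side of 0, while those of Sox9 in anagen and of Nfatc1 in Aged against ND 3 months do not.

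Probes of 1 gene did not always agree. The other Sox9 probe, designed to the same transcript, showed no lower level in anagen (0.08 ± 0.17), and its correlation with the first over the 20 arrays was -0.07. For Nfatc1 the other probe, designed to another transcript, was at 0.94 to 2.02 in Aged telogen and at -0.16 to 0.68 in ND 3 months, without overlap. That is a difference of 1.20 ± 0.40 (limma over 43395 probes, adjusted p = 0.314), where the probe used differed by -0.14 ± 0.32. In anagen this probe differed by -0.54 ± 0.26. The 3 other probes of Tcf7l2 were at 0.44 ± 0.36, 0.71 ± 0.28 and 0.71 ± 0.34 in Aged against ND 3 months, beside 0.04 ± 0.34 for the probe used, and none passed the test. In the same order, the means of these 3 probes were 3.304, 4.655 and 3.801 in ND 4 days and 3.154, 5.294 and 4.464 in Aged. For the Tcf7l2 probe used these means were 5.814 and 5.688. For Nfib the other probe was on the same side of 0 at -0.42 ± 0.16 in anagen (limma, adjusted p = 0.152), -0.65 ± 0.27 in Aged against ND 3 months and -0.66 ± 0.27 against ND 4 days, but not in ND 3 months against ND 4 days, where it was at -0.02. For Runx1 the others were at 0.41 ± 0.23 and 0.58 ± 0.37 in anagen, and at 0.23 ± 0.39 and -0.03 ± 0.63 in Aged against ND 3 months.

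Across the 20 arrays Sox9 and Tcf7l2 had the highest correlation of the 36 pairs of factors (r = 0.866, and 0.852 over the 15 telogen arrays). That value holds for the probes used. The Tcf7l2 probe used correlated with the other Tcf7l2 probes at 0.36, 0.32 and 0.09, and the Sox9 probe with its other probe at -0.07. The 36 correlations ran from -0.46 to 0.866 with a median of 0.22, and 26 were above 0. Over the telogen arrays alone their median was 0.062, and over all pairs of the 13010 genes well above background on the 20 arrays it was 0.009. The arrays share groups and phases, so these values are descriptions. Among the 12028 of these genes that are not predicted or clone names, those most like Sox9 were Fxyd3 (r = 0.888), Lgi4 (0.888) and Higd2a (0.883). Nfib was most like Smarca2 (0.881), Crim1 (0.871) and Tfap2b (0.868), and Foxc1 like Ltbp2 (0.832), Mbnl1 (0.818) and Nfxl1 (0.817). Over telogen alone the values for Foxc1 were 0.573, 0.589 and 0.669, and those for Nfib 0.779, 0.597 and 0.671. Lhx2 was followed by Net1 (0.897), Ccdc28b (0.892) and Eid1 (0.889), Tcf7l2 after Sox9 by Ndrg2 (0.861) and Zfp628 (0.854), and Tcf7l1 by Nif3l1 (0.83), Fbxw2 (0.76) and Rnf141 (0.739). The closest genes to Nfatc1 were Emc1 (0.778), Ccdc134 (0.776) and Lig3 (0.764), to Tbx1 Atp2a3 (0.796), C1qtnf12 (0.761) and Btbd11 (0.744), and to Runx1 Nup98 (0.786), Klf10 (0.778) and Atp6v0e (0.724).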

How the data were processed

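The scanner output came from Agilent Feature Extraction 10.7.1.1, per the file headers, with a background-corrected processed intensity per spot. The series' deposited value table gives a linear signal per probe, which matched the processed intensity divided by the 75th percentile of its array, with no centring of genes; it was used as an alternative. Here log2 processed intensities were averaged per probe and reduced by the 75th percentile of the array. Tests took in probes that rose well above background on every array of 1 telogen group, or in anagen on 3 arrays or more (43395 of 56605 probes). Through transcript accessions 32994 probes matched 1 RefSeq symbol, 0 several and 23611 none. The probe with the highest mean stood for each of 18727 genes.

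The 15 telogen arrays entered 1 fit for all group comparisons, and the 20 arrays another, with terms for phase and condition (limma 3.58.1 in R 4.3.3). Two-sided p-values were adjusted by Benjamini-Hochberg over the 18727 genes and called at 0.05; the number of arrays limits the precision. The fits were tested on simulated data. Members and lists were chosen with earlier results of these data known. Named were the 9 members, up to 4 list genes per comparison past the threshold by smallest p, or the smallest p of a list, and the 3 genes most like each member. Telogen differences of members count as given with a direction only where they are at least 1 standard error. Smaller ones, such as that of Nfib in Aged against ND 4 days, are printed as values only. The motif letters were chosen after the values were seen. Slides and positions were read from the array barcode and scans from the scan date, both in the scanner output. Alternatives covered background correction, scaling, filters, probes, priors, array weights, only the arrays compared, the replicate number, slide, threshold and leaving out each array.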

Additional observations from a re-analysis of the deposited data

Results flagged for a closer look

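Among the 5 anagen arrays, the Foxc1 level of ND 3 months, 0.21, stood apart from the other 4, which lay between 1.10 and 1.41. The Tbx1 level of the Aged anagen array, 3.52, stood apart from 3.93 to 4.07 on the others. Both were found by the gap to the nearest array relative to the range, among 18 such sets of 5 values (levels and anagen minus telogen differences of the 9 genes), where chance alone gives about 1 in 20.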

How the results depend on the processing

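The count of 0 factors called in the 7 telogen contrasts and in the F test held under every alternative run, leaving out each array included. In anagen against telogen, 2 factors were called, which became 1 under quantile normalization, 0 under median scaling, 0 under a slide block, 0 at an adjusted p below 0.01 and 0 to 2 when 1 array was left out. It was 3, with Lhx2 added (adjusted p = 0.0249), under a trended and robust prior. Over all genes the count of calls in that comparison was 1145, but 677 with the slide block, 407 at 0.01, 2016 at 0.1, 1910 with array weights and 555 to 2056 without 1 array. Another threshold, another prior, the replicate block or a fit of only the arrays compared leaves an estimate unchanged. For the members the filters on dim probes also keep the same probe, and the series' value table holds nearly the same scaled values. Those settings could not, or hardly could, turn a direction. Of 47 differences given with a direction, 1282 of 1291 values under other settings, those included, kept it. The 9 that turned were 0.10 for Nfib and -0.10 for Runx1 in Aged against ND 3 months and -0.08 for Nfib in ND 3 months against ND 4 days with the slide block, -0.032 for Runx1 and -0.018 for Nfib in the same comparisons with another probe, 0.078 for Sox9 in anagen with its other probe, 0.093 for Nfatc1 and 0.07 for Tbx1 in anagen with median scaling, and 0.12 for Nfatc2 at 4 days with the mean over its probes. The cause was not tested. With the replicate number as a block in the telogen fit, 0 factors were called, as without it, and no call of a listed gene changed: Nfib in Aged against ND 3 months had an adjusted p of 0.523. Over all genes the block took the calls from 12 to 7 there, from 3 to 0 in ND 3 months against ND 4 days and from 9 to 6 in the F test. Deviations of arrays with the same number correlated with a median of 0.01 (-0.14 to 0.06, 30 pairs), against 0 for different numbers. These values cannot settle whether the arrays were paired. In every telogen group the replicate number followed the column of the slide, so number and column cannot be told apart. The replicate number was not fitted as a block between phases, where each condition has 1 anagen array. With 3 arrays a group, the 95% intervals of the factors reach 0.47 to 1.47 to either side of the estimate.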
